A study of Mus musculus with 12 samples.

Results

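The response of MC38 cells to interferon (IFN) was compared between cells with and without knockout of Smarcd1, as a difference of differences. For each gene, the interaction was the log2 fold change with IFN in knockout cells minus the log2 fold change with IFN in wild-type cells. The same number is the genotype difference with IFN (the end level) minus the genotype difference without IFN (the start level). All 12 of the 12 libraries of the series entered it, and 170 of 16676 genes tested passed the threshold (Benjamini-Hochberg adjusted p under 0.05, edgeR's quasi-likelihood test), which is 1.02% of genes tested. Of these, 118 had a more positive IFN response in knockout cells (called higher here, 0.708% of genes tested) and 52 a more negative one (called lower, 0.312%). Interactions, differences between genotypes and IFN responses are log2 values unless given in CPM or as folds. Values after ± are standard deviations over 3 libraries for CPM levels, and standard errors for log2 differences and for differences of differences in CPM. The called genes were then sorted by whether the start level, the end level or both differed between the genotypes.

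MC38 is an established mouse colorectal carcinoma line, in which Smarcd1 was knocked out with a guide RNA. The 4 groups, each of 3 poly-A libraries, were Smarcd1 knockout cells with IFN, the same cells left untreated, wild-type MC38 cells with IFN, and untreated wild-type MC38 cells. Which IFN was used, at what dose and for how long, and whether the knockout cells were 1 clone or several, is not given in the sources used here. In the labels, RNA is described as total or from a polysome fraction, and they do not say which libraries hold which. Nothing in the labels says that the libraries of a group came from separate cultures, so p-values measure only the spread between these samples, which may be technical.

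Interferons bind receptors whose JAK kinases phosphorylate STAT proteins. STAT dimers bind GAS elements, STAT2 with IRF9 takes part in the complex that binds ISRE elements, and the genes turned on include further transcription factors such as IRF1, antiviral proteins, GTPases that act on intracellular pathogens, antigen presentation proteins and chemokines. SMARCD1 (BAF60A) is a subunit of the SWI/SNF (BAF) complexes, which move nucleosomes and so change how accessible DNA is to transcription factors.

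Libraries held 31752685 to 45721356 counts, and knockout libraries were deeper than wild-type ones (37270418 to 45721356 against 31752685 to 36394538). Replicate 2 of the untreated wild-type cells stood apart on the third principal component (score -50.9, against -11.8 to 28.8 in the other 11 libraries), and 4.82% of its counts were mitochondrial, against 1.52 to 2.99% elsewhere. For 6 libraries the titles and the genotype and treatment characteristics disagree, so that untreated knockout and IFN-treated wild-type cells trade places. The titles were used. Both of these groups enter the interaction with the same sign, so its values and its 170 calls are identical under either reading. The genotype differences with and without IFN would instead trade places with the IFN responses of knockout and wild-type cells. The sort, and every group level, genotype difference and IFN response given below, therefore rest on the titles. Smarcd1 (chromosome 15, 99702129 to 99713991, build GRCm38 as for all positions given) had 58.7, 60.2 and 60.6 CPM (counts scaled to library size) in knockout cells with IFN and 49.4, 50.04 and 54.9 CPM in those without, against 86.5, 99.6 and 123.4 CPM in wild-type cells with IFN and 85.1, 106 and 81.8 CPM in those without. Every knockout library lay below every wild-type library, and the interaction of Smarcd1 itself was 0.03 ± 0.18 (adjusted p = 0.955). By the characteristics, the libraries at 49.4 to 54.9 CPM would be wild-type cells with IFN. Of the 11 markers of T and NK cells, 9 had 0 counts in all libraries, as had the epithelial markers Epcam, Krt20 and Cdx2. The epithelial markers summed to 3.26 to 3.70 CPM in knockout cells with IFN and 6.91 to 7.79 in those without, against 3.81 to 4.35 in wild-type cells with IFN and 7.12 to 9.17 in those without. Fibroblast markers summed to 149 to 154 CPM in knockout cells with IFN and 137 to 143 in those without, against 241 to 272 in wild-type cells with IFN and at most 221 in those without. B cell markers, with Ms4a1 at 0 in all libraries, summed to 3.51 to 4.03 CPM in knockout cells with IFN and 2.27 to 6.89 in those without, against 22.5 to 43.7 in wild-type cells with IFN and 11.1 to 55.1 in those without. Pax5 made up most of these sums, at a mean of 3.52 CPM in knockout cells with IFN and 4.46 in those without, against 30.0 in wild-type cells with IFN and 36.6 in those without. Endothelial markers summed to 3.54 to 4.0 CPM in knockout cells with IFN and 3.96 to 4.59 in those without, against 9.37 to 11.8 in wild-type cells with IFN and 8.72 to 11.3 in those without. Of 13 macrophage and dendritic cell markers, 3 (Adgre1, C1qb and Tyrobp) were at 0 in all libraries. The markers of this list summed to 34.9 to 36.5 CPM in knockout cells with IFN and 38.3 to 44.1 in those without. They summed to 32.8 to 38.1 CPM in wild-type cells with IFN and 36.5 to 41.0 in those without. No gene of these marker lists passed the interaction test, and their part in the results was not tested.

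The most frequent pattern was a start level that IFN brought closer to that of wild-type cells (the plot of the genotype difference with and without IFN). In 86 of the 170 genes both levels differed between genotypes in the same direction, in 41 the start level alone passed the test, in 28 the end level alone, and in 15 both passed in opposite directions. None passed in neither by edgeR, and none had an unadjusted p above 0.05 in both, while DESeq2 placed 1 gene there. Over all genes tested, 15.7% differed between genotypes with IFN (5.11% higher and 10.6% lower in knockout cells) and 17.0% without (6.43% higher and 10.6% lower). Of the 118 genes with a more positive response, 115 started below wild type, beside 8425 of all 16676 genes tested. The exceptions were Fst, Cdc42ep2 and E2f2. The start level is part of the interaction, so selecting a positive interaction already favours a low start. The sort describes the called genes and is not a test. In the 68 higher genes that differed in both states the median knockout level was 39.9% of wild type with IFN and 7.60% without. In the 35 higher genes that differed at the start alone, it was 103% with IFN and 39.0% without. The 52 genes with a more negative response were spread otherwise: 23 differed at the end alone, 18 in both states in the same direction, 6 at the start alone and 5 in opposite directions.

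**Figure D1:**
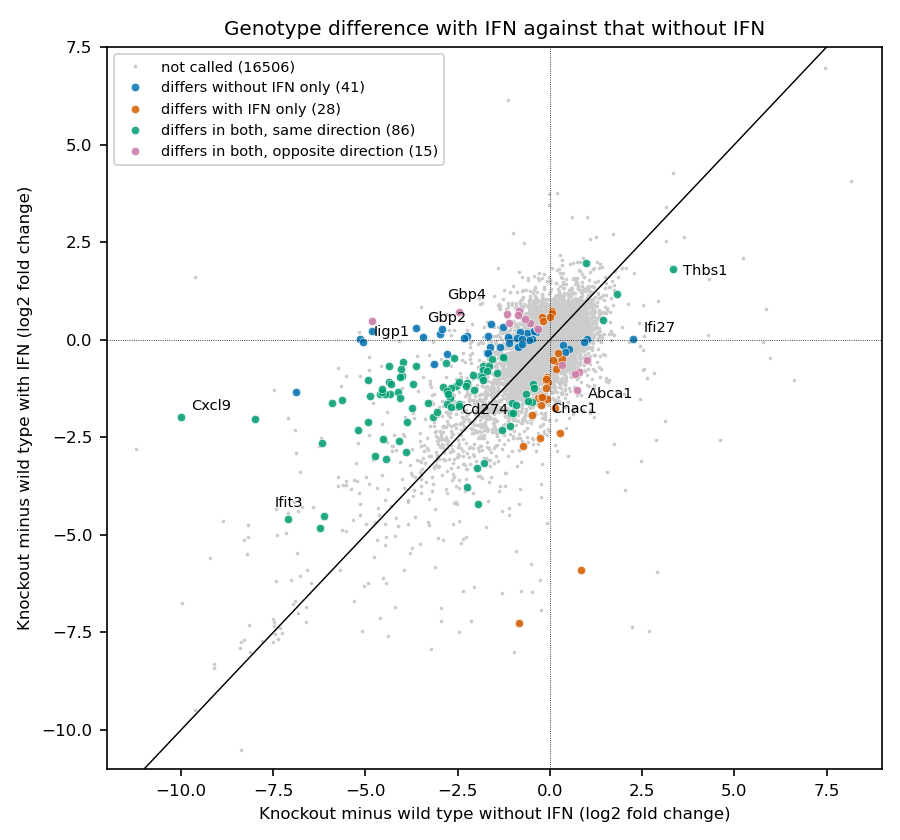
Log2 fold change of knockout over wild-type cells with IFN (vertical axis) against that without IFN (horizontal axis) for the 16676 genes tested; each coloured point is one of the 170 genes past the interaction threshold, and the diagonal marks an interaction of 0. Most coloured points lie above the diagonal and left of 0, with blue points (start level alone) near 0 on the vertical axis and orange points (end level alone) near 0 on the horizontal axis.

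A missed threshold does not show equal levels, so the 95% interval of the smaller difference was read as well. For 32 of the 41 genes sorted to the start level alone, the interval of the end difference lay within 1.5-fold of wild type, and for 38 within 2-fold. For 20 of the 28 genes sorted to the end level alone, the interval of the start difference lay within 1.5-fold, and for 25 within 2-fold. These intervals come from the same differences whose missed threshold placed the genes in their class. They describe the classes and are not separate evidence of equal levels. The sort depended on single libraries. Lower genes numbered 29 to 34 when replicate 1 or 2 of wild-type cells with IFN or any library of knockout cells with IFN was left out. Genes differing at the end alone numbered 14 to 17 when any library with IFN was left out. Genes differing at the start alone numbered 26 without replicate 2 of wild-type cells with IFN and 27 without replicate 2 of knockout cells with IFN. With groups taken from the characteristics, 19 genes would fall under the start level alone and 69 under the end level alone.

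Among the components of IFN signalling, Stat2, a subunit of the ISRE-binding complex, was called higher and differed in both states. Stat2 had 102, 105 and 111 CPM in knockout cells with IFN and 38.2, 38.7 and 38.9 CPM in those without, against 234, 239 and 245 CPM in wild-type cells with IFN and 189, 179.5 and 189 CPM in those without. All knockout libraries lay below all wild-type libraries, with an end difference of -1.18 ± 0.06, a start difference of -2.27 ± 0.07 and an interaction of 1.09 ± 0.09 (adjusted p = 2.13e-05). Irf9, the DNA-binding member of that complex, averaged 69.9 ± 1.46 CPM in knockout cells with IFN and 48.2 ± 2.28 CPM in those without, against 101 ± 5.80 CPM in wild-type cells with IFN and 92.5 ± 4.01 CPM in those without. Its interaction of 0.41 ± 0.11 missed the threshold by edgeR (adjusted p = 0.117) and passed it by DESeq2 (adjusted p = 0.0165).

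Of 12 tested interferon regulatory factors, Irf1, Irf7 and Irf8 were called, all higher. Over all genes tested 1.02% were called (0.708% higher and 0.312% lower), the share to set beside the list counts here and below. Irf1 had 339.7, 339.7 and 343 CPM in knockout cells with IFN and 38.1, 34.1 and 38.7 CPM in those without, against 277, 303 and 309 CPM in wild-type cells with IFN and 65.0, 63.5 and 67.1 CPM in those without. The knockout libraries with IFN were the highest and those without IFN the lowest, and no groups overlapped. Irf1, a transcription factor gene that IFN turns on early, had an end difference of 0.20 ± 0.07 (adjusted p = 0.0828), a start difference of -0.82 ± 0.07 (adjusted p = 6.58e-06) and an interaction of 1.02 ± 0.10 (adjusted p = 0.00015). Irf8, a further member named after its values were seen, averaged 25.9 ± 2.35 CPM in knockout cells with IFN and 1.03 ± 0.168 CPM in those without, against 25.2 ± 1.51 CPM in wild-type cells with IFN and 1.92 ± 0.171 CPM in those without. Its interaction was 0.93 ± 0.19 (adjusted p = 0.0315). Irf1 and Irf7 alone were called when replicate 3 of untreated wild-type cells, any library of wild-type cells with IFN, replicate 2 or 3 of untreated knockout cells or replicate 2 or 3 of knockout cells with IFN was left out.

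Irf7 had 57.9, 62.9 and 70.1 CPM in knockout cells with IFN and 25.1, 26.5 and 27.4 CPM in those without, against 174, 194 and 216 CPM in wild-type cells with IFN and 259.8, 257 and 267 CPM in those without. Irf7, which amplifies type I interferon responses, moved in opposite directions: its log2 fold change with IFN was 1.27 ± 0.10 (adjusted p = 1.74e-06) in knockout cells and -0.42 ± 0.09 (adjusted p = 0.0126) in wild-type cells. Its interaction was 1.70 ± 0.13 (adjusted p = 1.36e-05), and its end difference was -1.61. Socs1, a feedback inhibitor of JAK kinases, averaged 34.6 ± 0.738 CPM in knockout cells with IFN and 15.8 ± 1.19 CPM in those without, against 43.9 ± 3.37 CPM in wild-type cells with IFN and 19.1 ± 2.82 CPM in those without. Its log2 fold change with IFN was 1.13 ± 0.11 in knockout and 1.20 ± 0.11 in wild-type cells, and the 95% interval of its interaction was -0.41 to 0.27 (adjusted p = 0.889). None of the 18 tested feedback inhibitors was called by edgeR or by DESeq2, and 3 had an unadjusted p under 0.05. Over all genes tested edgeR called 1.02%, so no call in 18 genes does not set this list apart. Without replicate 2 of the untreated wild-type cells, edgeR called 1 of them.

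Stretches before the transcription start of 5 called genes are shown because they hold letters that STAT and IRF proteins are known to read (RefSeq promoters, GRCm38.p6, 5' to 3' along the gene; each ends at the base before the RefSeq start). Capitals mark the ISRE core (GAAA, any 2 bases, GAAA) and GAS (TTCNNNGAA), searched on both strands. An ISRE core on the other strand reads TTTC, any 2 bases, TTTC. Irf1 has 2 windows in the table: the first, printed here, holds a GAS match 90 bases before the start, and the second, which ends at 53770472, holds neither motif. Gbp7 holds GAS matches at 106 and 87 bases and an ISRE core at 53, and Igtp a GAS match at 45 and an ISRE core at 34 bases. Ifit3 holds ISRE cores at 156 and 122 bases, and Cxcl10 an ISRE core at 213 bases.
Irf1, chr11:53769904-53770013, plus strand: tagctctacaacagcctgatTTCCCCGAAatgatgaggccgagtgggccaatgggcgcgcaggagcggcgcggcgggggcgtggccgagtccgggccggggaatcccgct
Gbp7, chr3:142530210-142530335, plus strand: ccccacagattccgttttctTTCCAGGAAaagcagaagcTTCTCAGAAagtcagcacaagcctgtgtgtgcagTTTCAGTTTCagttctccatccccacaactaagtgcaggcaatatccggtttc
Igtp, chr11:58199476-58199555, plus strand: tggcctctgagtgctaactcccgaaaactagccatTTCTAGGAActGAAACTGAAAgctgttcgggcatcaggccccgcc
Ifit3, chr19:34583353-34583528, plus strand: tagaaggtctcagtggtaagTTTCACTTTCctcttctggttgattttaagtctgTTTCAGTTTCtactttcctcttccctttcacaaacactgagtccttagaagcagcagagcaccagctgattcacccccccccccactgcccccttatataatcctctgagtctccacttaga
Cxcl10, chr5:92348890-92349122, minus strand: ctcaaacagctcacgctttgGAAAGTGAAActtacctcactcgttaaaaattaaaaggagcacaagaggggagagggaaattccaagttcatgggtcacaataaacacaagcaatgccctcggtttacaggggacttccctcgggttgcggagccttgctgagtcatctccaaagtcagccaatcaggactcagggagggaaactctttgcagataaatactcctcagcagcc

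The windows of Tap1, Cd274, Cxcl9 and Irf7 held neither motif, which says only that these letters are not in the 250 bases searched. Promoters were matched by symbol for 112 of the 170 genes. An ISRE core stood in 23 of 74 higher genes (31.1%) and in 2 of 38 lower genes (5.26%), beside 3.25% of 11044 genes tested and 2.98% of all 32851 promoters in the table. Among the higher genes it stood in 17 of 39 that differed in both states in the same direction (43.6%) and in 5 of 24 that differed at the start alone (20.8%). GAS stood in 14.9% of higher and 7.89% of lower genes, beside 7.25% of genes tested and 7.02% of all promoters. The AP-1 letters TGANTCA stood in 13.5% of higher and 2.63% of lower genes, beside 5.93% of genes tested and 6.75% of all promoters.

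The guanylate-binding proteins (GBPs) and immunity-related GTPases (IRGs), large and small GTPases that attack the vacuoles of intracellular pathogens, were the list with the highest share of calls. The lists were chosen with earlier results of these data known, so their shares are a description and not a test. Of 21 tested members 19 were called, all higher, with a median interaction of 3.12; median differences between genotypes were -0.59 with IFN and -3.71 without. Of these, 12 differed in both states, 6 at the start alone and 1 in opposite directions. Between 18 and 19 members were called when single libraries were left out.

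Gbp2 had 707, 724 and 691 CPM in knockout cells with IFN and 5.13, 7.11 and 7.11 CPM in those without, against 582, 585 and 565 CPM in wild-type cells with IFN and 78.0, 77.6 and 82.1 CPM in those without. Untreated knockout cells were the lowest and no groups overlapped. Gbp2 (chromosome 3, 142620602 to 142638008) had an interaction of 3.91 ± 0.15 (adjusted p = 1.58e-08), from log2 fold changes with IFN of 6.78 in knockout and 2.87 in wild-type cells. Its end difference of 0.29 ± 0.10 did not pass the test (adjusted p = 0.0679). Iigp1 had 542, 537 and 536 CPM in knockout cells with IFN and 3.02, 3.98 and 5.37 CPM in those without, against 565, 559 and 552 CPM in wild-type cells with IFN and 125, 151 and 138 CPM in those without. Iigp1, an IRG that acts on parasite vacuoles, had an end difference of -0.05 ± 0.14 (95% interval -0.35 to 0.25), a start difference of -5.06 ± 0.17 and an interaction of 5.004 ± 0.21 (adjusted p = 4.24e-08).

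Gbp7, whose promoter stretch is printed above, averaged 435 ± 12.01 CPM in knockout cells with IFN and 16.2 ± 3.01 CPM in those without, against 396 ± 7.63 CPM in wild-type cells with IFN and 128.5 ± 30.4 CPM in those without. Its interaction was 3.12 ± 0.22 (adjusted p = 5.11e-06). Igtp (Irgm3), a further member named after its values were seen, averaged 376 ± 9.27 CPM in knockout cells with IFN and 19.5 ± 4.04 CPM in those without, against 483 ± 9.15 CPM in wild-type cells with IFN and 135 ± 17.1 CPM in those without. Its interaction was 2.44 ± 0.19 (adjusted p = 1.1e-05). Olfr56, annotated as an olfactory receptor gene whose span at chromosome 11, 48978889 to 49135387 includes Tgtp1 and Tgtp2, had an interaction of 3.51 ± 0.45 (adjusted p = 0.00128) and an end difference of 0.07 ± 0.28.

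Gbp3 and the T cell-specific GTPases Tgtp1 and Tgtp2 stayed below wild type with IFN as well. Tgtp1 had 209.9, 223 and 205 CPM in knockout cells with IFN and 2.68, 3.54 and 3.503 CPM in those without, against 443, 437 and 416 CPM in wild-type cells with IFN and 103, 94.1 and 103 CPM in those without. Knockout libraries were below wild-type libraries in each state, with differences of -1.02 ± 0.09 with IFN and -4.94 ± 0.11 without, which gave an interaction of 3.92 ± 0.14 (adjusted p = 1.58e-08). Tgtp2 had an interaction of 3.69 ± 0.19 (adjusted p = 2.04e-07) and an end difference of -0.67 ± 0.13. Gbp3 averaged 299 ± 5.37 CPM in knockout cells with IFN and 18.7 ± 2.42 CPM in those without, against 444 ± 20.5 CPM in wild-type cells with IFN and 292 ± 10.99 CPM in those without. Its interaction was 3.40 ± 0.13 (adjusted p = 1.58e-08). Reads of these close paralogs can be assigned to the wrong copy, so the values of single GBP and IRG genes are uncertain.

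Gbp4 had 235, 241 and 251 CPM in knockout cells with IFN and 3.24, 4.12 and 3.59 CPM in those without, against 141, 137 and 164 CPM in wild-type cells with IFN and 19.2, 20.0 and 20.7 CPM in those without. Here the order of the genotypes turned over, with knockout cells the highest with IFN and the lowest without. Gbp4 had an end difference of 0.72 ± 0.09 (adjusted p = 0.000172), a start difference of -2.45 ± 0.10 (adjusted p = 5.18e-09) and an interaction of 3.17 ± 0.14 (adjusted p = 5.5e-08). The complement gene C4b did likewise, with 13.1 ± 0.428 CPM in knockout cells with IFN and 0.536 ± 0.0680 CPM in those without, against 8.32 ± 0.499 CPM in wild-type cells with IFN and 1.20 ± 0.212 CPM in those without; its end difference was 0.65 ± 0.13, its start difference -1.16 ± 0.17 and its interaction 1.81 ± 0.21 (adjusted p = 0.000587). With limma, C4b was not called on log2(TPM + 1) (0.67, adjusted p = 0.0648) or log2(TPM + 0.1) (1.12, adjusted p = 0.205).

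**Figure D2:**
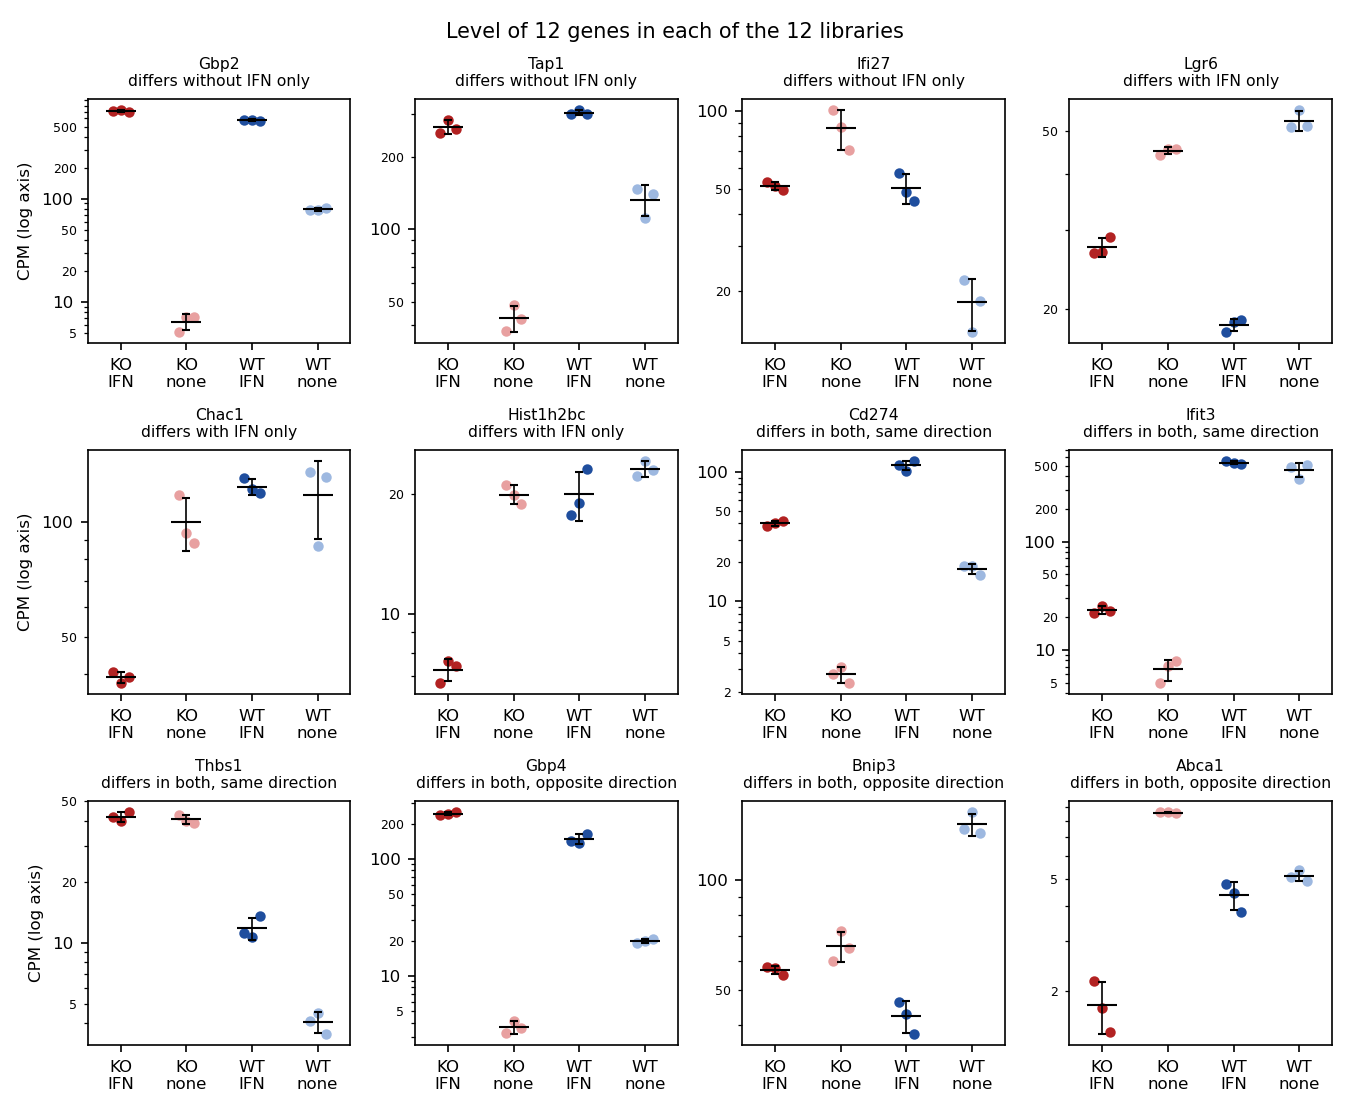
CPM of 12 genes on log axes in each library (points), with the mean and SD of the 3 libraries (bars), in both genotypes with and without IFN. Gbp2 and Tap1 are lowest in untreated knockout libraries, Chac1 and Hist1h2bc in knockout libraries with IFN, Ifit3 and Cd274 are lower in knockout libraries in each state, and Gbp4, Bnip3 and Abca1 change the order of the genotypes.

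Of 27 tested genes of MHC class I presentation, which loads peptides onto MHC class I for T cells, 11 were called, all higher; 6 differed at the start alone and 5 in both states. Tap1 had 251, 285 and 262 CPM in knockout cells with IFN and 37.7, 48.3 and 42.4 CPM in those without, against 300.2, 313 and 300.2 CPM in wild-type cells with IFN and 147, 111 and 140.2 CPM in those without. Untreated knockout cells were the lowest and untreated wild-type cells the next, while knockout and wild-type cells with IFN lay closest, without overlap. Tap1, a subunit of the peptide transporter, had an end difference of -0.20 ± 0.11 (95% interval -0.44 to 0.05), a start difference of -1.63 ± 0.12 and an interaction of 1.44 ± 0.16 (adjusted p = 0.000363). Erap1, which trims the peptides, averaged 82.5 ± 0.133 CPM in knockout cells with IFN and 26.1 ± 3.29 CPM in those without, against 79.2 ± 5.27 CPM in wild-type cells with IFN and 56.9 ± 3.45 CPM in those without, and its end difference was 0.06 ± 0.10 (95% interval -0.15 to 0.27) beside an interaction of 1.18 ± 0.14 (adjusted p = 0.000488).

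Nlrc5, the transactivator of MHC class I genes, averaged 299 ± 0.366 CPM in knockout cells with IFN and 69.6 ± 2.54 CPM in those without, against 403 ± 14.7 CPM in wild-type cells with IFN and 169.5 ± 14.7 CPM in those without. It was lower in knockout cells in each state, with differences of -0.43 ± 0.07 (adjusted p = 0.00158) with IFN and -1.28 ± 0.08 (adjusted p = 1.05e-07) without, with an interaction of 0.85 ± 0.11 (adjusted p = 0.000905). With limma, Nlrc5 was not called on log2(TPM + 1) (0.54, adjusted p = 0.0570) or log2(TPM + 0.1) (0.56, adjusted p = 0.0532). The heavy chain gene H2-K1 averaged 805 ± 27.9 CPM in knockout cells with IFN and 475 ± 12.5 CPM in those without, against 1204 ± 88.4 CPM in wild-type cells with IFN and 1047 ± 235 CPM in those without, and its interaction of 0.56 ± 0.19 (adjusted p = 0.287) was not called. Without replicate 2 of the untreated wild-type cells, the library that stood apart, it was called at 0.74 (adjusted p = 0.00179), and the called members of the list numbered 18 higher and 1 lower. Without replicate 2 of wild-type cells with IFN, or without replicate 3 of knockout cells with IFN, 7 members were called. The light chain gene B2m ranged over 2453 to 2658 CPM in knockout cells with IFN and 1286 to 1560 in those without, against 2090 to 3533 in wild-type cells with IFN and 2073 to 3791 in those without. Its interaction was not called (adjusted p = 0.356). None of the 5 tested MHC class II genes was called by edgeR or DESeq2, and none had an unadjusted p under 0.05. With 1.02% of all genes tested called by edgeR, no call in 5 genes does not set them apart.

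Cd274, which encodes PD-L1, was the called member of 12 tested ligands of T and NK cell receptors (8.33%, beside 1.02% of all genes tested). Cd274 had 37.9, 40.2 and 41.5 CPM in knockout cells with IFN and 2.77, 3.11 and 2.36 CPM in those without, against 113, 102 and 120.0 CPM in wild-type cells with IFN and 18.7, 18.9 and 16.0 CPM in those without. No groups overlapped, and knockout cells were lower in each state. Cd274 (chromosome 19, 29367455 to 29388095) had an end difference of -1.49 ± 0.11 (adjusted p = 1.33e-06), a start difference of -2.70 ± 0.12 (adjusted p = 8.47e-09) and an interaction of 1.22 ± 0.16 (adjusted p = 0.00127). Its log2 fold change with IFN was 3.86 in knockout and 2.65 in wild-type cells. In CPM, however, IFN added less in knockout cells: the difference of differences was -56.7 ± 5.54 CPM. With limma on log2(TPM + 1), where the pseudocount dampens low levels, the interaction was 0.68 (adjusted p = 0.0678). Of its exonic bases, 14.1% overlap a gene on the other strand.

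Of 14 tested chemokine genes Cxcl9, Cxcl10, Cxcl11 and Ccl5 were called, all higher and all below wild type in each state. Cxcl9 and Cxcl10 encode ligands of CXCR3, a chemokine receptor of T cells, while Cxcl11 is annotated as a polymorphic pseudogene. Cxcl9 had 24.4, 25.8 and 27.8 CPM in knockout cells with IFN and 0, 0 and 0 CPM in those without, against 84.5, 93.6 and 128.1 CPM in wild-type cells with IFN and 2.52, 4.64 and 3.17 CPM in those without. With 0 counts over the untreated knockout libraries and 3110 over those with IFN, IFN raised Cxcl9 at least 1120-fold in knockout cells, taking a floor of 3 counts over the group. Untreated knockout cells were at least 149-fold below untreated wild-type cells. At that floor the interaction of Cxcl9 was 5.24, and the fitted value of 8.04 ± 0.85 (adjusted p = 0.000625) depends on how 0 counts are handled; with limma on log2(TPM + 1) it was -0.02.

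Cxcl10 averaged 349 ± 17.5 CPM in knockout cells with IFN and 14.5 ± 0.901 CPM in those without, against 1750.0 ± 347 CPM in wild-type cells with IFN and 530.0 ± 43.3 CPM in those without. Its interaction was 2.87 ± 0.18 (adjusted p = 1.34e-06). On the CPM scale its difference of differences was -885 ± 202 CPM, opposite in sign. Cxcl11 had 2.21, 3.499 and 3.01 CPM in knockout cells with IFN and 0.0982, 0.0964 and 0.297 CPM in those without, against 13.5, 28.0 and 12.6 CPM in wild-type cells with IFN and 11.1, 14.02 and 12.2 CPM in those without. One library of wild-type cells with IFN was high, and the interaction of Cxcl11 was 3.54 ± 0.56 (adjusted p = 0.00605); it was not called (adjusted p = 0.0841) when replicate 2 of the untreated wild-type cells and replicate 1 of the untreated knockout cells were both left out. With limma on log2(TPM + 1) the interaction was 1.60 (adjusted p = 0.0975). Genes on the opposite strand overlap 41.7% of the exonic bases of Cxcl11.

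Such a change of sign between scales was counted over all called genes (the plot of log2 against CPM differences). The CPM difference of differences had the opposite sign to the log2 interaction in 36 of 118 higher genes, 21 of them by more than 2 standard errors, and in 3 of 52 lower genes, none by that much. Of the 36, 35 were genes that differed in both states in the same direction. Tgtp1 was one, at -122 ± 10.2 CPM beside a log2 interaction of 3.92, as were Cxcl9 at -72.6 ± 13.3 CPM, Batf2 at -12.3 ± 2.07 CPM and Parp14 at -187 ± 26.1 CPM. Gbp2 was positive on both scales, with 203 ± 11.6 CPM.

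**Figure D3:**
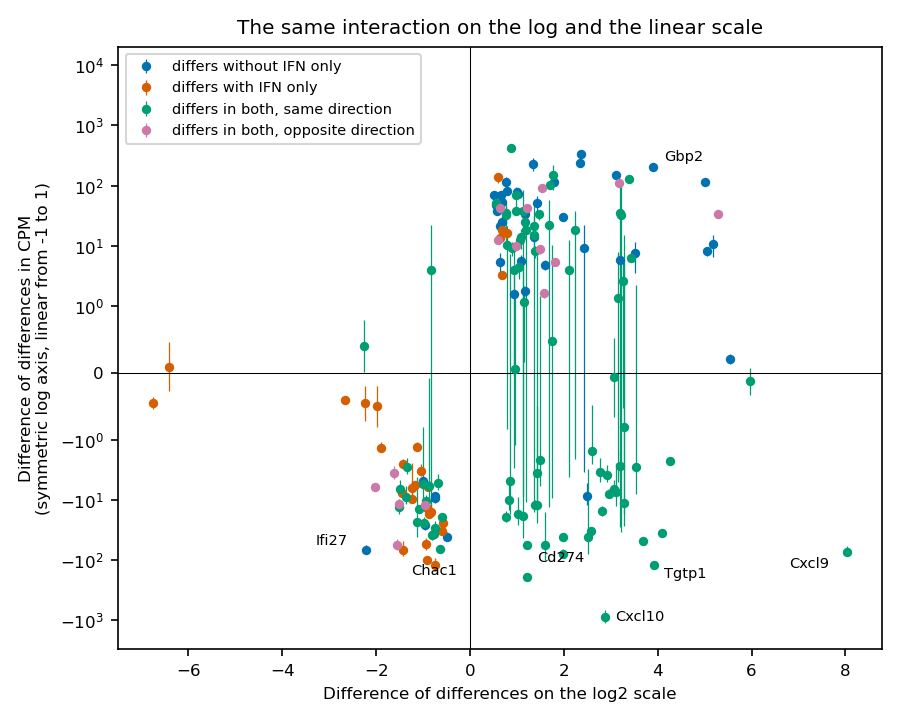
Difference of differences in CPM (vertical axis, symmetric log scale that is linear from -1 to 1; bars are standard errors) against the interaction on the log2 scale (horizontal axis) for the 170 called genes. Green points at the lower right, such as Cd274, Cxcl10 and Tgtp1, had a larger fold response to IFN in knockout cells and a smaller gain in CPM.

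Of 41 tested antiviral genes of the type I interferon response, 12 were called higher and 1 lower, and all 12 higher ones stayed below wild type in each state. The list's median differences were -1.85 with IFN and -2.68 without. Ifit3 had 22.02, 25.5 and 22.8 CPM in knockout cells with IFN and 4.96, 7.13 and 7.83 CPM in those without, against 555, 528 and 519 CPM in wild-type cells with IFN and 491, 382 and 509 CPM in those without. Knockout libraries lay far below wild-type libraries in each state, and no groups overlapped. Ifit3, which binds viral RNA with other IFIT proteins, had an end difference of -4.51 ± 0.17, a start difference of -6.11 ± 0.18 and an interaction of 1.60 ± 0.21 (adjusted p = 0.00128). Its log2 fold change with IFN was 1.82 ± 0.16 (adjusted p = 6.72e-06) in knockout cells and 0.21 ± 0.14 (adjusted p = 0.407) in wild-type cells. Ifit3 and its neighbour Ifit3b are near copies, so their counts are uncertain.

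Parp14, an ADP-ribosyltransferase, averaged 206 ± 10.7 CPM in knockout cells with IFN and 47.4 ± 4.18 CPM in those without, against 745 ± 16.2 CPM in wild-type cells with IFN and 399 ± 40.6 CPM in those without. Its interaction was 1.22 ± 0.13 (adjusted p = 0.000206). The classical antiviral gene Mx1 averaged 2.17 ± 0.0921 CPM in knockout cells with IFN and 1.86 ± 0.300 CPM in those without, against 63.2 ± 4.43 CPM in wild-type cells with IFN and 92.3 ± 7.53 CPM in those without. Its interaction of 0.77 ± 0.17 missed the threshold (adjusted p = 0.0516) and passed it without replicate 2 of the untreated wild-type cells (0.83, adjusted p = 0.0224), without replicate 2 of the untreated knockout cells (0.89, adjusted p = 0.0267) and by DESeq2 (adjusted p = 0.00815). Without replicate 2 of the untreated wild-type cells the list had 19 higher and 1 lower call.

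Ifi27 was the lower member of the antiviral list. Ifi27 had 52.9, 51.1 and 49.6 CPM in knockout cells with IFN and 101, 86.8 and 70.3 CPM in those without, against 57.5, 48.5 and 44.6 CPM in wild-type cells with IFN and 22.1, 13.9 and 18.2 CPM in those without. It was highest in untreated knockout cells and lowest in untreated wild-type cells, and both IFN groups overlapped between them. Its log2 fold change with IFN was -0.75 ± 0.16 (adjusted p = 0.00975) in knockout cells and 1.47 ± 0.17 (adjusted p = 0.000159) in wild-type cells. The end difference was 0.03 ± 0.16, the start difference 2.25 ± 0.17 and the interaction -2.22 ± 0.24 (adjusted p = 0.000224).

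Of 22 tested genes of nucleic acid sensing 6 were called, all higher. Zbp1 had 124, 125 and 133 CPM in knockout cells with IFN and 6.09, 7.52 and 8.68 CPM in those without, against 282, 299 and 335 CPM in wild-type cells with IFN and 169, 179.6 and 174 CPM in those without. Zbp1, a sensor of Z-form nucleic acids, was lower in every knockout library than in any wild-type library, with an end difference of -1.26 ± 0.11, a start difference of -4.55 ± 0.13 and an interaction of 3.29 ± 0.16 (adjusted p = 1.21e-07). Samhd1, which degrades dNTPs, averaged 462 ± 7.51 CPM in knockout cells with IFN and 164 ± 5.61 CPM in those without, against 460.1 ± 30.5 CPM in wild-type cells with IFN and 278 ± 18.6 CPM in those without; its end difference was 0.01 ± 0.08 (95% interval -0.16 to 0.17) and its interaction 0.77 ± 0.11 (adjusted p = 0.00213). The called members of this list numbered 3 when replicate 1 or 2 of wild-type cells with IFN or replicate 1 or 3 of knockout cells with IFN was left out. Of 24 tested AP-1 and immediate early genes, 2 were called higher and 1 lower (12.5%, beside 1.02% of all genes tested). The median interaction of that list was -0.016. Its lower calls numbered 0 or 1 when single libraries were left out. Batf2, an IFN-induced partner of AP-1 factors, averaged 15.2 ± 0.401 CPM in knockout cells with IFN and 1.02 ± 0.0392 CPM in those without, against 32.1 ± 3.43 CPM in wild-type cells with IFN and 5.68 ± 0.962 CPM in those without. Its interaction was 1.39 ± 0.19 (adjusted p = 0.00187). Ier3, an immediate early gene, averaged 232 ± 4.50 CPM in knockout cells with IFN and 106 ± 8.71 CPM in those without, against 207 ± 5.597 CPM in wild-type cells with IFN and 163 ± 13.4 CPM in those without, with an end difference of 0.16 ± 0.08 and an interaction of 0.79 ± 0.12 (adjusted p = 0.00317).

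The genes that differed with IFN alone were mostly lower, 23 of 28. The ATF4 and unfolded protein response list held 6 lower calls and no higher one among 30 tested (20.0%, beside 0.312% of all genes tested called lower). Of these calls, 1 was at the end alone and 5 in both states. Chac1 had 40.4, 37.9 and 39.3 CPM in knockout cells with IFN and 118, 94.0 and 88.2 CPM in those without, against 130.5, 122 and 119 CPM in wild-type cells with IFN and 136, 86.5 and 131 CPM in those without. Knockout libraries with IFN were the lowest, and untreated wild-type cells overlapped both remaining groups. Chac1, a glutathione-degrading enzyme and ATF4 target, had an end difference of -1.66 ± 0.16 (adjusted p = 1.22e-05), a start difference of -0.24 ± 0.15 (95% interval -0.57 to 0.09) and an interaction of -1.43 ± 0.22 (adjusted p = 0.00421). Herpud1, which takes part in the degradation of misfolded proteins of the endoplasmic reticulum, averaged 49.1 ± 2.54 CPM in knockout cells with IFN and 78.0 ± 3.30 CPM in those without, against 129 ± 6.02 CPM in wild-type cells with IFN and 121 ± 5.02 CPM in those without. Its interaction was -0.76 ± 0.10 (adjusted p = 0.00213). It fell with IFN in knockout cells (log2 fold change -0.67), beside 0.09 in wild-type cells (adjusted p = 0.521). The further members Trib3 (-1.12), Slc7a11 (-0.99), Atf3 (-0.88) and Aldh1l2 (-0.84), named after their values were seen, had interactions of the same direction. Without replicate 2 or replicate 3 of knockout cells with IFN, 3 members of the list were called.

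The replication-dependent histone list had 3 lower calls among 16 tested (18.8%, beside 0.312% of all genes tested called lower), all at the end alone. Hist1h2bc had 6.72, 7.62 and 7.43 CPM in knockout cells with IFN and 21.0, 19.8 and 18.9 CPM in those without, against 17.7, 19.0 and 23.1 CPM in wild-type cells with IFN and 22.1, 24.1 and 22.9 CPM in those without. Knockout libraries with IFN lay below the other 9. The interaction of Hist1h2bc, a histone H2B gene, was -1.24 ± 0.16 (adjusted p = 0.00106), with an end difference of -1.46 ± 0.11 and a start difference of -0.21 ± 0.11. Hist1h1c, a linker histone gene, averaged 5.98 ± 0.320 CPM in knockout cells with IFN and 24.3 ± 3.20 CPM in those without, against 16.7 ± 2.91 CPM in wild-type cells with IFN and 28.7 ± 5.16 CPM in those without. Its interaction was -1.24 ± 0.23 (adjusted p = 0.0183). Hist1h1c was not called (adjusted p 0.0529 to 0.0683) on leaving out replicate 1 or 2 of wild-type cells with IFN, replicate 2 of untreated knockout cells or any library of knockout cells with IFN, nor with limma (adjusted p = 0.0684 on log2(TPM + 1) and 0.0554 on log2(TPM + 0.1)). Only 1 member of the list was called without any one of replicates 1 and 2 of wild-type cells with IFN, replicate 2 of untreated knockout cells, and replicates 1 and 2 of knockout cells with IFN. Most replication-dependent histone transcripts lack a poly-A tail, so poly-A libraries capture them only in part.

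The mitotic activator Cdc20 averaged 181 ± 1.25 CPM in knockout cells with IFN and 306 ± 20.4 CPM in those without, against 267 ± 1.78 CPM in wild-type cells with IFN and 270.1 ± 45.1 CPM in those without, with an end difference of -0.56 ± 0.11 and an interaction of -0.74 ± 0.15 (adjusted p = 0.0324). It was the called member of 25 tested G2/M genes (4.0%, beside 1.02% of all genes tested). Cdc20 was not called (adjusted p 0.0597 to 0.101) when any library other than those of untreated wild-type cells was left out, nor with limma (adjusted p = 0.0632 on log2(TPM + 1) and 0.0612 on log2(TPM + 0.1)). E2f2, a transcription factor of the G1 to S transition, averaged 38.3 ± 0.172 CPM in knockout cells with IFN and 28.3 ± 1.21 CPM in those without, against 23.9 ± 2.28 CPM in wild-type cells with IFN and 27.4 ± 0.565 CPM in those without. Its interaction was positive, at 0.63 ± 0.12 (adjusted p = 0.0237). The call of E2f2 went past 0.05 (adjusted p 0.0502 to 0.0890) on leaving out any one of replicates 1 and 3 of untreated wild-type cells, replicates 1 and 2 of wild-type cells with IFN, replicates 2 and 3 of untreated knockout cells and the libraries of knockout cells with IFN. The remaining higher genes of this class included Lgr6, a Wnt-pathway receptor. Lgr6 had 26.6, 26.8 and 29.0 CPM in knockout cells with IFN and 44.1, 45.5 and 45.6 CPM in those without, against 17.8, 18.7 and 18.9 CPM in wild-type cells with IFN and 51.0, 55.6 and 51.1 CPM in those without. Lgr6 fell with IFN in both genotypes, with a log2 fold change of -0.71 in knockout and -1.51 in wild-type cells, and its interaction was 0.80 ± 0.11 (adjusted p = 0.00178). With limma, Lgr6 was not called on log2(TPM + 1) (adjusted p = 0.0570) or log2(TPM + 0.1) (adjusted p = 0.0504). Ntn4, a basement membrane netrin, fell in both too (-0.51 in knockout and -1.20 in wild-type cells), with an interaction of 0.69 ± 0.14 (adjusted p = 0.0384). Ntn4 was not called (adjusted p 0.0725 to 0.122) on leaving out any library other than replicate 2 of the untreated wild-type cells, without the filter on low counts (adjusted p = 0.104), or with limma (adjusted p = 0.168 on log2(TPM + 1) and 0.17 on log2(TPM + 0.1)). Cdc42ep2, an effector of CDC42, had an interaction of 0.68 ± 0.12 (adjusted p = 0.0144). It was not called (adjusted p 0.0548 to 0.0574) on leaving out replicate 2 of wild-type cells with IFN or replicate 1 or 3 of knockout cells with IFN.

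Krt16 and Garem2 rose with IFN in wild-type cells (log2 fold changes 1.67 and 0.84), while in knockout cells the changes of 0.22 and -0.59 did not pass the test. Krt16 had 2.53, 3.53 and 3.45 CPM in knockout cells with IFN and 3.04, 2.34 and 2.74 CPM in those without, against 11.8, 11.96 and 12.1 CPM in wild-type cells with IFN and 4.38, 2.65 and 4.30 CPM in those without. Wild-type cells with IFN were the highest, and the other 3 groups overlapped. Krt16, a keratin of stressed epithelia, had an interaction of -1.44 ± 0.28 (adjusted p = 0.0254). Krt16 was not called (adjusted p 0.0538 to 0.0757) on leaving out any library of wild-type cells with IFN, replicate 1 or 3 of untreated knockout cells, or replicate 1 or 3 of knockout cells with IFN. Garem2, an adaptor of growth factor signalling, had an interaction of -1.43 ± 0.28 (adjusted p = 0.0277). It was not called (adjusted p 0.0538 to 0.0934) on leaving out replicate 3 of untreated wild-type cells, any library of wild-type cells with IFN, replicate 1 or 3 of untreated knockout cells, or replicate 1 or 3 of knockout cells with IFN. With limma on log2(TPM + 0.1) its adjusted p was 0.0755. Cdh3 and Gata4, named after their values were seen, had 0 counts in knockout cells with IFN. Cdh3 had 98 counts over the untreated knockout libraries, 49 over wild-type libraries with IFN and 141 over untreated wild-type ones. Gata4 had 74, 19 and 32 counts in the same 3 groups.

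The 18 lower genes that differed in both states in the same direction had a median difference between genotypes of -1.65 with IFN and -0.97 without. Tenm4 had 3.20, 3.63 and 3.79 CPM in knockout cells with IFN and 9.80, 7.23 and 8.11 CPM in those without, against 46.0, 49.8 and 49.1 CPM in wild-type cells with IFN and 43.3, 43.5 and 33.0 CPM in those without. All knockout libraries were below all wild-type libraries. Tenm4, a teneurin adhesion receptor, had an end difference of -3.77 ± 0.15, a start difference of -2.25 ± 0.14 and an interaction of -1.52 ± 0.19 (adjusted p = 0.00107). Gdf15, a stress-induced cytokine of the TGF-beta family, averaged 3.08 ± 0.312 CPM in knockout cells with IFN and 6.32 ± 0.823 CPM in those without, against 27.3 ± 2.01 CPM in wild-type cells with IFN and 21.7 ± 4.59 CPM in those without. Its interaction was -1.37 ± 0.22 (adjusted p = 0.00684). Soat2, which esterifies cholesterol, averaged 1.73 ± 0.260 CPM in knockout cells with IFN and 4.28 ± 0.180 CPM in those without, against 17.0 ± 1.24 CPM in wild-type cells with IFN and 16.7 ± 0.782 CPM in those without. Its interaction was -1.33 ± 0.17 (adjusted p = 0.00115).

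Thbs1 had 41.6, 39.7 and 44.2 CPM in knockout cells with IFN and 42.9, 39.9 and 39.1 CPM in those without, against 11.2, 10.7 and 13.5 CPM in wild-type cells with IFN and 4.12, 4.50 and 3.54 CPM in those without. Thbs1, a matrix glycoprotein, was higher in every knockout library than in any wild-type library and its log2 fold change with IFN was 0.04 ± 0.11 (adjusted p = 0.85) in knockout cells, beside 1.54 ± 0.12 (adjusted p = 5.48e-06) in wild-type cells, where it rose. Its end difference was 1.82 ± 0.11, its start difference 3.32 ± 0.12 and its interaction -1.50 ± 0.16 (adjusted p = 0.000257). Ctgf, a matricellular gene of the YAP pathway, was the other called member of 31 tested matrix genes (6.45% called, beside 1.02% of all genes tested). It averaged 6.45 ± 0.896 CPM in knockout cells with IFN and 17.5 ± 2.80 CPM in those without, against 9.20 ± 0.532 CPM in wild-type cells with IFN and 8.73 ± 0.391 CPM in those without. Its end difference was -0.51 ± 0.14, its start difference 1.01 ± 0.14 and its interaction -1.52 ± 0.19 (adjusted p = 0.00107). Genes on the opposite strand overlap 23.2% of its exonic bases.

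In 5 lower genes the order of the genotypes changed. Abca1 had 2.17, 1.75 and 1.43 CPM in knockout cells with IFN and 8.60, 8.58 and 8.51 CPM in those without, against 4.803, 4.47 and 3.82 CPM in wild-type cells with IFN and 5.08, 5.35 and 4.91 CPM in those without. Untreated knockout cells were the highest, knockout cells with IFN the lowest, and both wild-type groups lay in between, without overlap. Abca1, the cholesterol efflux transporter and an LXR target, had an end difference of -1.29 ± 0.16 (adjusted p = 0.000109), a start difference of 0.74 ± 0.15 (adjusted p = 0.00414) and an interaction of -2.03 ± 0.22 (adjusted p = 0.00022). It was the called member of 8 tested LXR genes (12.5%, beside 1.02% of all genes tested). Mcf2l, a guanine nucleotide exchange factor, had an interaction of -1.63 ± 0.33 (adjusted p = 0.0318). Mcf2l was not called (adjusted p 0.0544 to 0.105) on leaving out any library of untreated wild-type cells, or replicate 1 or 2 of any of the other groups, nor with limma (-0.96, adjusted p = 0.309, on log2(TPM + 1) and -1.32, adjusted p = 0.346, on log2(TPM + 0.1)).

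Of 30 tested genes of glycolysis and hypoxia 5 were called, all higher, and in all 5 the IFN response passed the test in wild-type cells and not in knockout cells. Bnip3 had 57.7, 57.2 and 55.02 CPM in knockout cells with IFN and 59.8, 72.5 and 65.1 CPM in those without, against 46.3, 42.8 and 37.8 CPM in wild-type cells with IFN and 138, 154 and 135 CPM in those without. Untreated wild-type cells were the highest and wild-type cells with IFN the lowest. The log2 fold change with IFN of Bnip3, a mitophagy receptor and HIF target, was -0.22 ± 0.10 (adjusted p = 0.177) in knockout cells and -1.75 ± 0.10 (adjusted p = 3.34e-07) in wild-type cells. Its end difference was 0.42 ± 0.10, its start difference -1.11 ± 0.10 and its interaction 1.53 ± 0.14 (adjusted p = 5.32e-05), and 22.2% of its exonic bases overlap genes on the opposite strand. Egln3, a prolyl hydroxylase of the HIF system, averaged 51.9 ± 2.24 CPM in knockout cells with IFN and 44.2 ± 4.49 CPM in those without, against 35.7 ± 2.24 CPM in wild-type cells with IFN and 70.1 ± 7.53 CPM in those without. Its interaction was 1.21 ± 0.14 (adjusted p = 0.000625). The further members Egln1 (0.57), Pfkp (0.57) and P4ha1 (0.51), named after their values were seen, had smaller interactions. The called members numbered 2 without replicate 1 or 3 of knockout cells with IFN, 3 without replicate 1 or 3 of untreated wild-type cells, replicate 2 of wild-type cells with IFN, replicate 3 of untreated knockout cells or replicate 2 of knockout cells with IFN, and 7 without replicate 2 of untreated wild-type cells.

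Besides Ifi27, the lower genes that differed at the start alone included Duox1, Pcx and Plpp3. Duox1 had 3.41, 3.90 and 4.05 CPM in knockout cells with IFN and 9.75, 9.79 and 9.45 CPM in those without, against 3.502, 3.89 and 3.79 CPM in wild-type cells with IFN and 4.50, 4.25 and 5.58 CPM in those without. Untreated knockout cells stood above the other groups. The interaction of Duox1, an NADPH oxidase, was -0.99 ± 0.19 (adjusted p = 0.0209). Duox1 was not called (adjusted p 0.0508 to 0.0781) on leaving out replicate 1 of untreated wild-type cells, replicate 2 or 3 of wild-type cells with IFN, replicate 2 or 3 of untreated knockout cells, or replicate 1 or 2 of knockout cells with IFN. With limma on log2(TPM + 0.1) its adjusted p was 0.101. Pcx, pyruvate carboxylase, had an interaction of -0.96 ± 0.19 (adjusted p = 0.0318). Pcx was not called (adjusted p 0.0601 to 0.104) on leaving out any library with IFN or replicate 1 or 2 of untreated knockout cells, nor with limma (adjusted p = 0.0644 on log2(TPM + 1) and 0.0629 on log2(TPM + 0.1)). Plpp3, a lipid phosphatase, had an interaction of -0.75 ± 0.14 (adjusted p = 0.0168). Plpp3 was not called (adjusted p 0.0548 to 0.0713) on leaving out replicate 3 of untreated wild-type or untreated knockout cells or replicate 2 or 3 of knockout cells with IFN.

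Other lists had no call by edgeR, which called 1.02% of all genes tested, so lists of this size may hold none. Among 22 tested NF-kB genes 3 had an unadjusted p under 0.05 and DESeq2 called 1; among 24 cell death genes the numbers were 2 and 2, among 26 SWI/SNF subunits 0 and 0, among 26 genes of cholesterol synthesis and uptake 5 and 0, and among 21 Myc and ribosome biogenesis genes 1 and 0. Their median interactions lay between -0.10 and 0.28. In all, 80 of the 170 genes were in one of the lists (the plot of calls by list) and 90 in none.

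**Figure D4:**
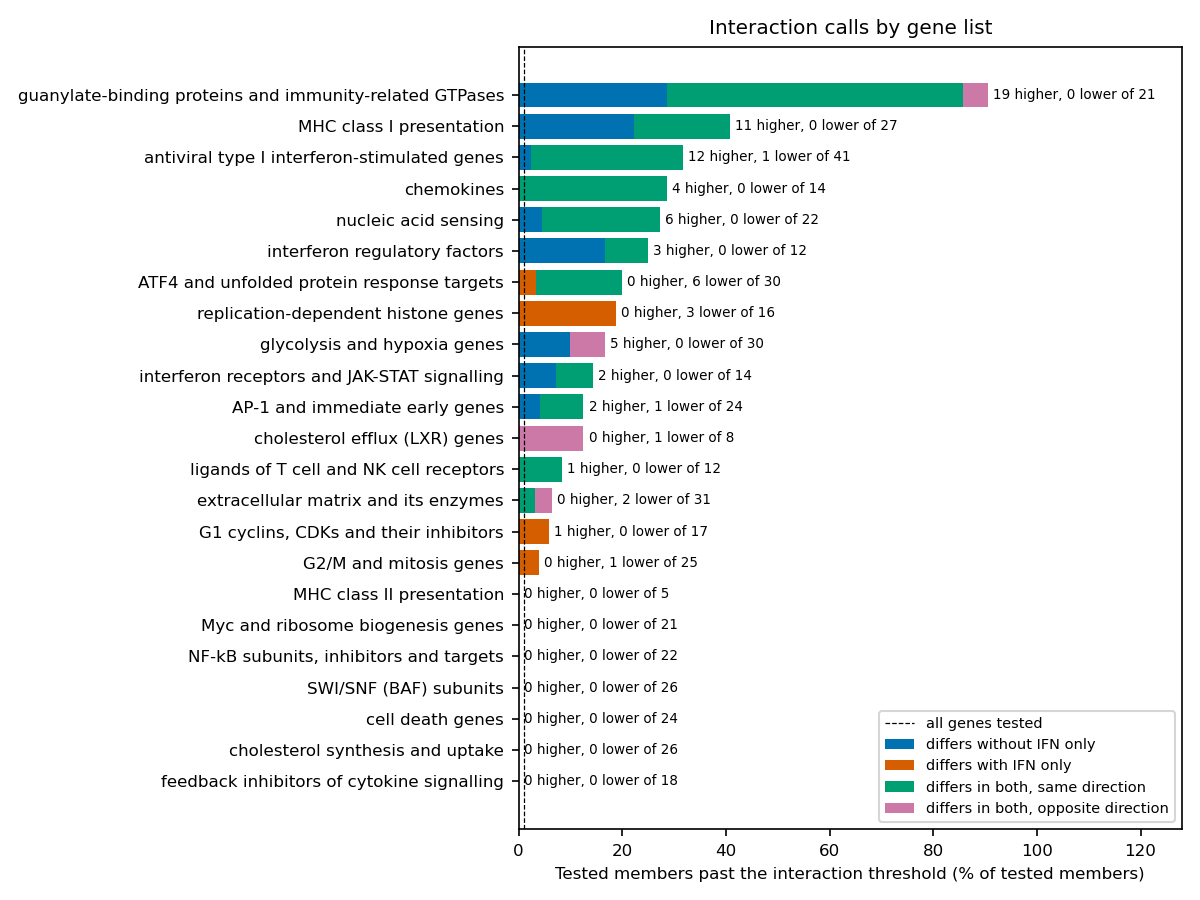
Share of tested list members past the interaction threshold (bars, % of tested members), coloured by how the levels differed, with the numbers higher and lower; the dashed line is the 1.02% of all genes tested. The GBP and IRG list reached 90.5%, MHC class I presentation 40.7% and the antiviral list 31.7%, and 7 lists had no call. Lists were chosen with earlier results of these data known.

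Sorted by the IFN response instead, 64 of the 118 higher genes rose with IFN in both genotypes, by more in knockout cells. Another 36 passed the test in knockout cells alone, 10 in wild-type cells alone, and 6 moved in opposite directions. The last 2 (Lgr6 and Ntn4) fell in both genotypes, by more in wild-type cells. Both IFN responses are part of the interaction, so selecting on it already favours such patterns, and this sort is not a test. Over all genes tested, IFN changed 12.8% in knockout cells (5.47% up, 7.28% down) and 9.38% in wild-type cells (4.66% up, 4.72% down). Of the 52 lower genes, 33 passed in knockout cells alone, 9 in wild-type cells alone, 5 in both by more in knockout cells, 4 in opposite directions and 1 by more in wild-type cells. The 6 higher genes with opposite responses, named after their values were seen, were Irf7, Ifi44, Ly6e, Ly6c1, Apod and Cyp26b1. Ly6e averaged 407 ± 30.6 CPM in knockout cells with IFN and 315 ± 16.8 CPM in those without, against 792 ± 93.0 CPM in wild-type cells with IFN and 1128 ± 42.1 CPM in those without. Ly6c1 averaged 93.9 ± 5.39 CPM in knockout cells with IFN and 48.7 ± 3.58 CPM in those without, against 87.3 ± 6.56 CPM in wild-type cells with IFN and 157 ± 4.92 CPM in those without, and both encode membrane proteins of the Ly6 family.

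Many of the called genes lay near each other. Of the 170, 59 (34.7%) had another called gene within 100 kb, beside 4.30% of 16633 genes tested with a position that had a called gene that near. They formed 19 runs, among them Gbp5, Gbp7, Gbp3 and Gbp2 on chromosome 3 (142493978 to 142638008), Gbp8, Gbp9, Gbp4, Gm43302, Gbp10 and Gbp6 on chromosome 5 (105014150 to 105293698), and Cxcl9, Cxcl10 and Cxcl11 on chromosome 5 (92321347 to 92365485). Irgm1, Gm12185, Olfr56, Tgtp1 and Tgtp2 lay on chromosome 11 (48861968 to 49135387), Gm12250, Igtp and Irgm2 on chromosome 11 (58187739 to 58222782), and Iigp1 with 5 neighbours on chromosome 18. All members of these runs were higher. The run of Herpud1 and Nlrc5 on chromosome 8 held 1 lower and 1 higher gene.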

How the data were processed

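Poly-A RNA was sequenced from 12 MC38 libraries, 3 in each of 4 groups taken from the sample titles. The authors deposited 2 tables, one of raw counts per Ensembl gene and one of TPM (length-scaled expression, summing to 999728.7 to 999898.1 in each library). Per the submitters' processing notes, the build was GRCm38 and the tools, named with no order, were HISAT2 2.1.0, Trimmomatic 0.36, FastQC 0.11.2 and CASAVA. Which program counted reads, whether by strand, and on which annotation is not given in the sources used here. No column belonged to samples of another series (0), and no row lacked a gene identifier (0).

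From the deposited counts, 16676 of 51826 genes passed filterByExpr (minimum count 10, minimum total 15). With TMM scaling and 1 coefficient for each group, edgeR 4.0.16 (glmQLFit, glmQLFTest, R 4.3.3) gave 5 contrasts over all 12 libraries: the interaction, the genotype difference with and without IFN, and the IFN response in each genotype. P-values were adjusted by Benjamini-Hochberg over all genes tested. Standard errors of log2 values are the absolute log2 value divided by the square root of the F statistic. CPM use TMM-scaled library sizes. The procedure was tested on simulated counts with known changes. The biological coefficient of variation was 0.168, and log2 CPM of libraries within a group correlated at 0.980 to 0.989. Intervals cover the spread between these libraries.

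The alternatives were DESeq2 size factors, no filter, the replicate number as a block, DESeq2 1.42.0, limma 3.58.1 on log2 of the deposited TPM plus 1 or 0.1, each library left out with the filter applied again, both libraries farthest from their groups left out, and groups from the characteristics. Genes named are those with the largest interaction in each class and direction (up to 4, or 2 where the order of the genotypes turned, at a mean of at least 2 CPM), a panel of 18 genes, and up to 2 called genes with the smallest p of each of 23 gene lists. One result of this rule is not reported here. The members and lists were chosen with earlier results of these data known. Positions are from GENCODE M21, which matched 169 of the 170 called genes; promoter sequences are from RefSeq, GRCm38.p6. Of the 170 genes, 26 share over 10% of their exonic bases with another gene, so their counts may hold reads of both.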

Additional observations from a re-analysis of the deposited data

Results flagged for a closer look

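Each of the named genes below passed the interaction test and responded differently to IFN in knockout and wild-type cells, by a test of that difference (edgeR's quasi-likelihood test, Benjamini-Hochberg adjusted). The values are log2 interactions, positive where the response was more positive in knockout cells. Iigp1 (5.004), Gbp2 (3.91), Olfr56 (3.51), Gbp7 (3.12), Tap1 (1.44), Erap1 (1.18), Irf1 (1.02), Ier3 (0.79) and Samhd1 (0.77) had a more positive response and differed between genotypes at the start alone. Ifi27 (-2.22), Duox1 (-0.99), Pcx (-0.96) and Plpp3 (-0.75) had a more negative response and differed between genotypes at the start alone. Lgr6 (0.80), Ntn4 (0.69), Cdc42ep2 (0.68) and E2f2 (0.63) had a more positive response and differed at the end alone. Krt16 (-1.44), Garem2 (-1.43), Chac1 (-1.43), Hist1h2bc (-1.24), Hist1h1c (-1.24) and Cdc20 (-0.74) had a more negative response and differed at the end alone. Cxcl9 (8.04), Tgtp1 (3.92), Tgtp2 (3.69), Cxcl11 (3.54), Gbp3 (3.40), Zbp1 (3.29), Cxcl10 (2.87), Irf7 (1.70), Ifit3 (1.60), Batf2 (1.39), Parp14 (1.22), Cd274 (1.22), Stat2 (1.09) and Nlrc5 (0.85) had a more positive response and differed in both states in the same direction. Tenm4 (-1.52), Thbs1 (-1.50), Gdf15 (-1.37), Soat2 (-1.33) and Herpud1 (-0.76) had a more negative response and differed in both states in the same direction. Gbp4 (3.17), C4b (1.81), Bnip3 (1.53) and Egln3 (1.21) had a more positive response and differed in opposite directions. Abca1 (-2.03), Mcf2l (-1.63) and Ctgf (-1.52) had a more negative response and differed in opposite directions. The calls of Ntn4, Mcf2l, Cdc20, E2f2, Garem2, Pcx, Duox1, Krt16, Hist1h1c, Plpp3 and Cdc42ep2 were lost when some single libraries were left out. Nlrc5, Lgr6, Cxcl11, C4b and Cd274 were among the genes not called with limma on log2(TPM + 1). The value of Cxcl9 was 5.24 at a floor of 3 counts over the group and -0.02 with limma on log2(TPM + 1). Groups of 3 libraries were too small to test for single outlying libraries.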

How the results depend on the processing

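All 170 called genes kept their sign under every count-based alternative run; 2 changed sign with limma on log2(TPM + 1). DESeq2 size factors gave 118 higher and 53 lower genes, and no filter 112 and 43. The cause of the moves that follow was not tested. DESeq2's test called 215 higher and 142 lower genes, sorted as 95 start alone, 90 end alone, 146 same direction, 25 opposite and 1 neither. Limma called 32 lower genes on log2(TPM + 1) and 30 on log2(TPM + 0.1), with 14 at the end alone on each scale and 9 opposite on the second; Cxcl9 was then -0.020 on the first. Without both replicate 2 of untreated wild-type and replicate 1 of untreated knockout cells there were 186 higher and 79 lower genes, with 48 end alone, 145 same direction and 26 opposite, and the uncalled interactions of Smarcd1 and Socs1 were -0.12 and 0.038. Groups from the characteristics gave 19 start alone and 69 end alone.

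Leaving out single libraries gave 89 to 150 higher, 29 to 62 lower, 26 to 52 start alone, 14 to 29 end alone, 67 to 114 same direction and 10 to 17 opposite genes; Smarcd1's interaction ranged over -0.090 to 0.18 and that of Socs1 over -0.17 to 0.038, and 116 to 162 of the 170 genes were still called. In these fits, which for Smarcd1 and for the gene lists were chosen after seeing the data, the Smarcd1 difference was -0.90 to -0.64 with IFN and -0.89 to -0.69 without.

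Replicate numbers did not pair the libraries: correlations of deviations were -0.16 to 0.11 over 18 same-numbered pairs, 1 of them over 0.1, and -0.17 to 0.19 over 36 others. With the replicate block, 108 higher and 35 lower genes were called, 139 of them among the 170, with 17 at the end alone; E2f2, Garem2, Mcf2l and Ntn4 were not called, and 3 members of the hypoxia list were. With 3 libraries in each group, a missed threshold leaves a difference unresolved, and 11 of the 170 genes averaged under 2 CPM.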

Other observations

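Further called genes, named after their values were seen, lay outside the groups above. Ido1, which degrades tryptophan, had 140 counts over the knockout libraries with IFN and 0 over the untreated knockout libraries, against 348 over wild-type libraries with IFN and 20 over untreated wild-type libraries. IFN thus raised Ido1 at least 50.3-fold in knockout cells, with a floor of 3 counts over the group. Its counts rose with IFN in wild-type cells too, and at that floor its log2 interaction was 1.45. Apod, a lipid-binding apolipoprotein, averaged 1.69 ± 0.303 CPM in knockout cells with IFN and 0.317 ± 0.153 CPM in those without, against 4.54 ± 0.583 CPM in wild-type cells with IFN and 9.50 ± 1.18 CPM in those without. Its log2 fold change with IFN was 2.38 ± 0.28 (adjusted p = 9.34e-05) in knockout cells and -1.06 ± 0.22 (adjusted p = 0.00863) in wild-type cells, opposite in direction. Cyp26b1, which degrades retinoic acid, averaged 21.2 ± 1.80 CPM in knockout cells with IFN and 13.3 ± 0.608 CPM in those without, against 39.96 ± 5.87 CPM in wild-type cells with IFN and 56.6 ± 6.27 CPM in those without, with an interaction of 1.17 ± 0.17 (adjusted p = 0.00281). Fst, a binder of activins that was not below wild type at the start, averaged 55.3 ± 1.83 CPM in knockout cells with IFN and 5.54 ± 0.340 CPM in those without, against 14.2 ± 1.08 CPM in wild-type cells with IFN and 2.80 ± 0.319 CPM in those without, with an interaction of 0.98 ± 0.15 (adjusted p = 0.0047).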
